A study of Rattus norvegicus with 52 samples.

Results

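Steroid receptors and the genes that relay their signals in luminal mammary cells were followed across sorted cells of rats with and without *Cdkn1b*, the gene of the cell cycle inhibitor p27. The 9 genes chosen by symbol were the estrogen receptors *Esr1* and *Esr2*, the progesterone receptor *Pgr*, the glucocorticoid receptor *Nr3c1*, the progesterone-induced cytokine *Tnfsf11* (Rankl), the transcriptional co-regulator *Cited1*, the estrogen-responsive genes *Greb1* and *Tff3*, and *Fkbp5*, a co-chaperone of steroid receptors. Rows for 8 of the 9 were among the 17356 gene rows of each count table, and *Greb1* had none. RNA was sequenced in 48 libraries, and levels are given as CPM, read counts scaled to the reads assigned to genes, with TMM factors that correct for differences in RNA composition.

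The *Cdkn1b*-/- rats carried 1 of the short frame-shifting deletions DEL-32 and DEL-65, made in Sprague-Dawley rats and crossed into the ACI strain. Cells were sorted from crosses of heterozygotes at an early (N1xN1) or late (N6xN6) backcross generation, and *Cdkn1b*+/+ females of these crosses were the controls. At 9 weeks, virgin females of each genotype gave 2 libraries of Cd24+Cd29high basal cells, 2 of Cd24+Cd29low mature luminal cells negative for Cd49b and PNA, 2 of PNA+ and 2 of Cd49b+ luminal progenitors. PNA is a lectin and Cd49b an integrin, and both progenitor sorts are called LP here. Basal and luminal cells of younger rats gave 6 *Cdkn1b*+/+ and 5 *Cdkn1b*-/- libraries at 4 weeks, and 5 *Cdkn1b*+/+ and 4 *Cdkn1b*-/- libraries at 6 weeks. By the paper these cohorts were 3 to 4 and 5 to 6 weeks old, so age can vary within each. In the estradiol (E2) experiment, basal and luminal cells came from ACI and Brown Norway (BN) rats that, by the methods, received empty or E2-filled implants at 9 weeks for 3 weeks. ACI had 2 libraries per treatment and cell type and BN had 1, whose titles carry 2 animal numbers. The luminal titles there name Cd49b and PNA without saying whether the cells were positive.

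In the mammary gland, estrogen and progesterone act on a subset of luminal cells that carry *Esr1* and *Pgr*. *Esr1* is needed for duct growth and for full *Pgr* expression, and *Pgr* drives side branching by inducing secreted signals such as Rankl and *Wnt4* that reach neighbouring receptor-negative cells. *Cited1* binds Esr1 as a co-activator in such cells. *Fkbp5* is induced by glucocorticoid and progesterone receptors and in turn lowers the hormone affinity of the glucocorticoid receptor.

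The sequence upstream of the start site is shown for *Esr1* and *Pgr*, whose levels varied together over the cell populations, and for *Cited1* and *Fkbp5*, which differed between genotypes. Each window holds the 250 bases before the start, 5′ to 3′ on the gene's strand, from RefSeq on build GRCr8. The build of the count tables is rn6, so these positions apply to GRCr8 alone. The windows lie at chr1:43641845-43642094 (+) for *Esr1*, chr8:14354148-14354397 (+) for *Pgr*, chrX:71395024-71395273 (-) for *Cited1* and chr20:6543556-6543805 (-) for *Fkbp5*. Capitals mark an estrogen response half-site.
Esr1: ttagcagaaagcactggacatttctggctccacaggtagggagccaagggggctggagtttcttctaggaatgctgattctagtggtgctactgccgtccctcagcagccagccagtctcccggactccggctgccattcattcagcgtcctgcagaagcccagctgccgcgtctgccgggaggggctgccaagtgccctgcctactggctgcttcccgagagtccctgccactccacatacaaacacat
Pgr: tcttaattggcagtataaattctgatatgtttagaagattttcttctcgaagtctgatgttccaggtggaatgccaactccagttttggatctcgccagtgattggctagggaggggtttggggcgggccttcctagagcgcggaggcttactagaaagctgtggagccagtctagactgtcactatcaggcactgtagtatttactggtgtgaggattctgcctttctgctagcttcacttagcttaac
Cited1: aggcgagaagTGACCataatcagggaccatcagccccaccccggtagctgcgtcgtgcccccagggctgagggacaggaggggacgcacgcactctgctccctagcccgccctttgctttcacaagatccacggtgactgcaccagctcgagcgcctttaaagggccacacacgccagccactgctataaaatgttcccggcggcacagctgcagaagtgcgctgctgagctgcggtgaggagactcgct
Fkbp5: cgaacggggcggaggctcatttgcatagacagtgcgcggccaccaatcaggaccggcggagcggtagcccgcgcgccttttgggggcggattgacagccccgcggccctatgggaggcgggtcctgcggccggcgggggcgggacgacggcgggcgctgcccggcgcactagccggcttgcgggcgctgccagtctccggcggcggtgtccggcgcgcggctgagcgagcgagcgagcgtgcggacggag

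The half-site searched was GGTCA, or TGACC on the other strand, and 35.4% of the 33469 windows of this length held it. It occurred once in the *Cited1* window, as TGACC from 240 to 236 bases before the start, and was absent from the windows of *Esr1*, *Pgr* and *Fkbp5*. The 250 bases of *Esr2* held 2 copies of it and those of *Tff3* 1. Neither a steroid receptor half-site (AGAACA or TGTTCT, in 17.5% of all windows) nor a forkhead motif (TGTTTAC or GTAAACA, in 3.21%) was found in any of the 9 windows of 8 of these genes. The motifs searched share no letters in these windows, since the estrogen half-site was the one matched, and a match or its absence describes letters only. *Greb1* had no entry.

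Reads assigned to genes ranged from 21545344 to 33859550 per library at 9 weeks, from 14674040 to 23045345 at 4 weeks, from 7985619 to 16390460 at 6 weeks and from 13659389 to 25280421 in the E2 experiment. *Cdkn1b* itself stood between 1.80 and 4.61 CPM in the *Cdkn1b*-/- libraries of 9 weeks and between 6.14 and 15.7 in *Cdkn1b*+/+, without overlap. At 4 weeks the ranges were 5.19 to 18.8 and 14.3 to 41.4, and at 6 weeks 10.2 to 36.7 and 3.48 to 43.9, so the genotypes overlapped. The overlap at 6 weeks came from *Cdkn1b*-/- luminal library 2 (36.7 CPM) and *Cdkn1b*+/+ basal library 3 (3.48). Without them the ranges were 10.2 to 11.25 and 21.95 to 43.9. This basal library had the fewest assigned reads (7985619), and 77.0% of its reads were not assigned to a gene. The cause of these values was not tested. The deletions are short, so reads from the rest of the gene do not check the allele directly. The library labelled *Cdkn1b*-/- luminal 2 of 6 weeks stood apart, with summed adipocyte markers at 8884 CPM and endothelial markers at 1529, against 62.3 to 419 and 0.287 to 138.5 in the other 3 luminal libraries of that age. Levels were scaled within 3 sets of libraries (9 weeks, 4 and 6 weeks, E2), so a level is not compared between sets. The libraries are bulk samples, in which fewer cells of a type and less RNA per cell cannot be told apart, and p-values measure the spread between these libraries. Where groups are said not to overlap, this describes their few libraries, and the share of all genes that separate so was not counted. The labels of 9 weeks give replicate numbers and name no animals. The libraries of 9 weeks were taken as 2 rats per genotype, since those of the same genotype and number deviated together. On that reading each genotype's 4 LP libraries stand for 2 animals, and a rat is named below by its replicate number.

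Among the *Cdkn1b*+/+ populations of 9 weeks, *Esr1* and *Pgr* were highest in LP, intermediate in mature luminal cells and lowest in basal cells. *Esr1* stood at 21.4 and 20.2 CPM in the PNA+ libraries, 17.5 and 14.3 in the Cd49b+ libraries, 7.10 and 8.47 in mature luminal cells, and 0.922 and 1.53 in basal cells. The values of LP, mature luminal and basal cells did not overlap. *Pgr* stood at 66.8 and 57.6 CPM in PNA+ cells, 54.0 and 41.7 in Cd49b+ cells, 17.2 and 14.8 in mature luminal cells, and 5.70 and 5.46 in basal cells. Its order was that of *Esr1*.

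*Pgr* was higher in LP than in mature luminal cells by a log2 fold change of 1.78 (SE 0.45, adjusted p = 0.0275 in edgeR's quasi-likelihood test over all genes), and it was the only one of the 7 tested members that passed, where 11% of all 12809 genes tested passed. *Esr1* differed by 1.24 (SE 0.42, adjusted p = 0.0714) and passed with DESeq2 (adjusted p = 0.0303). With the replicate number as a block, which pairs libraries of one rat, 4 members passed: *Pgr*, *Esr1* (adjusted p = 0.00759), *Nr3c1* with a log2 difference of 0.74 (adjusted p = 0.0227) and *Esr2* with -2.53 (adjusted p = 0.0264), and all calls rose from 1406 to 4406 genes. The *Pgr* call depended on single libraries: it was lost without either Cd49b+ library, either mature luminal library or PNA+ library 2, with adjusted p between 0.0518 and 0.14, and it was lost with the progenitor libraries of each rat summed (adjusted p = 0.115) or with either progenitor sort alone. The block still counts both progenitor libraries of a rat, and with these summed no member passed, *Esr1*, *Nr3c1* and *Esr2* included.

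The progenitor sorts did not stand out by their own markers. Of 5 tested progenitor markers such as *Kit* and *Elf5*, 1 (*Elf5*, log2 -0.998, adjusted p = 0.0392) was lower in LP than in mature luminal cells and 0 were higher in edgeR's test, and the summed list ranged from 365 to 1003 CPM in LP and from 761 to 1764 in mature luminal cells. The endothelial list was higher in LP, with 5 of 6 genes passing (*Kdr* by a log2 of 2.92, *Cdh5* by 2.75), and its sum ranged from 300 to 582 CPM against 78.3 to 88.2, although the staining panel included Cd31. All 6 endothelial genes were detected in both populations. Adipocyte sums ranged from 801 to 927 CPM in LP and from 423 to 504 in mature luminal cells, with 1 of 4 tested genes passing, and basal marker sums from 229 to 669 and from 169 to 173, with 0 of 8 passing in edgeR's test and all 8 positive (median log2 1.26). Of 7 luminal markers, 1 (*Krt19*, log2 -0.87) was lower in LP. The part of these shifts in the *Pgr* and *Esr1* differences was not tested.

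Of the receptors' partners, *Prlr* and *Foxa1* were higher in LP. *Prlr*, the prolactin receptor, was higher in LP than in mature luminal cells by a log2 of 1.67 (adjusted p = 0.0201) and *Foxa1*, a factor that opens chromatin for Esr1, by 1.34 (adjusted p = 0.037). Of the 7 hormone-sensing luminal partners, 2 were higher and 1 lower (*Tfap2c*, -0.75), with a list median of 1.34 beside -0.06 over all genes. Of the 17 other hormone receptors 2 were higher, *Prlr* and the membrane progesterone-binding protein *Pgrmc1* (0.77, adjusted p = 0.042), and none was lower by edgeR's test. Of 11 tested estrogen-responsive genes none passed in either direction. Of the 12 glucocorticoid-responsive genes 1 was higher (*Sgk1*, 1.02) and 1 lower (*Cebpd*, -0.83), of the 7 genes of the progesterone paracrine axis 1 was lower (*Elf5*), and of 14 tested coregulators and chaperones 1 was higher (*Ncor1*, 0.61). With the progenitor libraries of each rat summed, 0 of 12740 genes passed in edgeR's test, so all of these calls were lost (adjusted p = 0.0865 for *Prlr* and 0.128 for *Foxa1*).

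Basal cells of 9 weeks were lower than mature luminal cells in 3 of 7 tested members, where 20.9% of all genes passed. *Esr1* fell by 2.67 on the log2 scale (SE 0.50, adjusted p = 0.00242), *Cited1* by 2.19 (SE 0.64, adjusted p = 0.027) and *Pgr* by 1.52 (SE 0.49, adjusted p = 0.0425). *Cited1* stood at 10.8 and 22.3 CPM in the basal libraries, under the 53.1 and 98.2 of the mature luminal ones. With the replicate block the same 3 members passed, and all calls rose from 2672 to 4882. *Esr1* passed in every leave-out, *Cited1* lost its call without basal library 1 (adjusted p = 0.186) or mature luminal library 2 (adjusted p = 0.155), and *Pgr* lost it without any single one of the 4 libraries (adjusted p from 0.0929 to 0.154). *Prlr* differed by -2.66 on the log2 scale, past the threshold, while all 8 basal markers were higher and 6 of 7 luminal markers lower.

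*Nr3c1* was present in every population. In *Cdkn1b*+/+ rats it stood at 68.1 and 64.9 CPM in the basal libraries, 46.3 and 52.7 in the mature luminal ones, 70.2 and 110.4 in Cd49b+ cells, and 59.1 and 97.8 in PNA+ cells. LP of rat 2 exceeded LP of rat 1 in both sorts, and all 4 lay above the mature luminal libraries. The basal minus mature luminal difference was 0.43 on the log2 scale (SE 0.35, adjusted p = 0.431).

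*Fkbp5* varied little over the *Cdkn1b*+/+ populations, at 5.14 to 7.47 CPM in the basal libraries, 7.14 and 7.53 in the mature luminal ones and 9.996 to 12.3 in LP. The LP libraries lay above all others, but the LP minus mature luminal difference of 0.62 (SE 0.40) had an adjusted p of 0.333.

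*Esr2* and *Tff3* were near the detection floor, which for 3 counts was 0.0870 to 0.418 CPM over the 48 libraries. *Esr2* was at 0 in 26 libraries and at or under 3 counts in 37. *Tff3* was at 0 in 19 libraries and at or under 3 counts in 27. *Tnfsf11* had no read in any of the 48 libraries, and such a row cannot tell absent RNA from RNA that was not counted. Its receptor gene *Tnfrsf11a* was tested: its LP minus mature luminal difference was -0.81 (SE 0.49, adjusted p = 0.29).

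The PNA+ and Cd49b+ sorts of both genotypes were compared with genotype as a term. None of the 6 tested members passed in edgeR's test, where 0% of the 11725 genes tested passed, 358 had an unadjusted p under 0.05 and DESeq2 called 41. *Pgr* was higher in PNA+ by 0.32 on the log2 scale (SE 0.14) and *Cited1* by 0.34 (SE 0.16), each in all 4 rats, with an adjusted p of 1 for both.

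**Figure D1:**
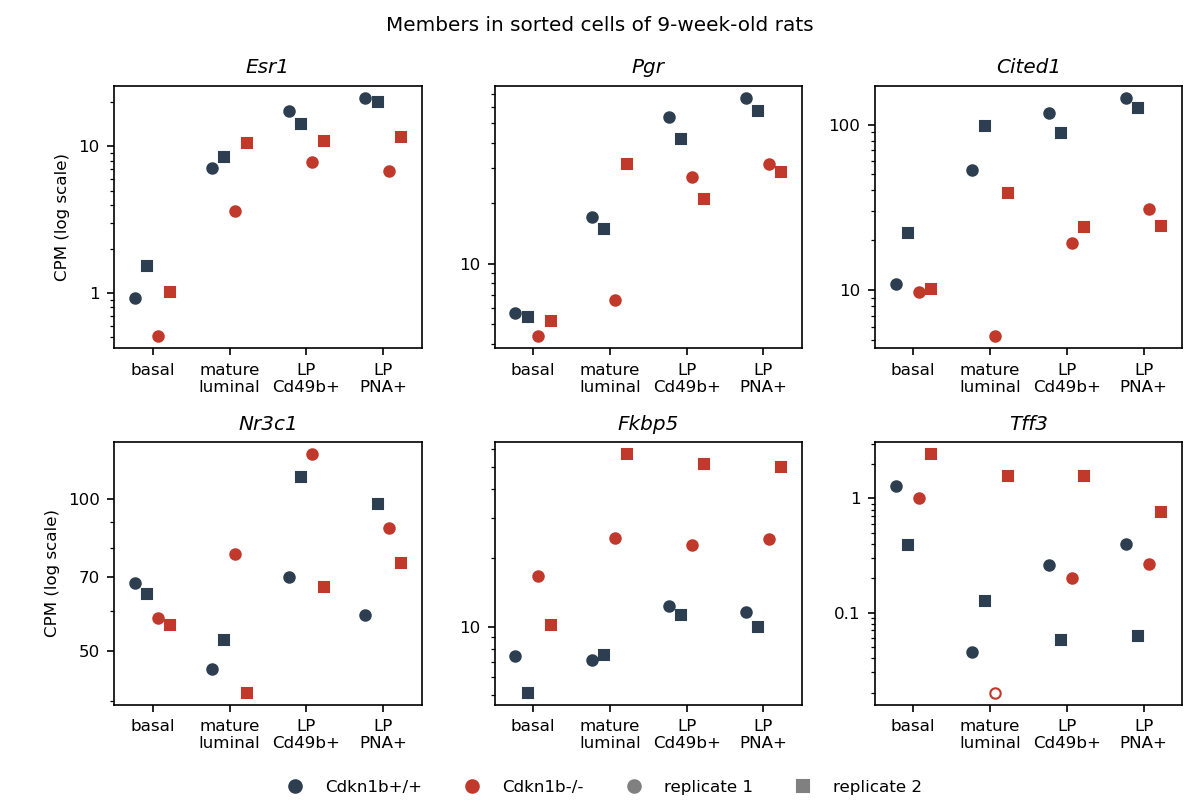
Level in CPM (log scale) of 6 members in each of the 16 libraries of 9 weeks, by sorted population and genotype, circles for replicate 1 and squares for replicate 2. The open circle in the *Tff3* panel is a library with no read, drawn at 0.02. *Cited1* in *Cdkn1b*-/- LP lies between 19.3 and 30.8, under all *Cdkn1b*+/+ LP libraries, and *Fkbp5* in *Cdkn1b*-/- LP lies above all of them.

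Loss of *Cdkn1b* was accompanied in LP by less *Cited1* and more *Fkbp5*. *Cited1* stood at 117, 89.2, 145 and 127 CPM in the 4 *Cdkn1b*+/+ LP libraries and at 19.3, 24.2, 30.8 and 24.3 in the 4 *Cdkn1b*-/- ones, in the order Cd49b+ 1 and 2, PNA+ 1 and 2. It fell by 2.27 on the log2 scale (SE 0.46, adjusted p = 0.0165), and the genotypes did not overlap. *Fkbp5* stood at 12.3, 11.2, 11.6 and 9.996 CPM in *Cdkn1b*+/+ LP and at 22.9, 51.6, 24.3 and 50.1 in *Cdkn1b*-/- LP. It rose by 1.72 (SE 0.33, adjusted p = 0.0125), again without overlap, and in the *Cdkn1b*-/- rats both libraries of rat 2 stood above both of rat 1.

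These were 2 of 7 tested members, where 3.4% of all 12809 genes passed. The 4 libraries of a genotype were taken as 2 rats, so the summed libraries give a stricter comparison. In it no member passed in edgeR's test, with an adjusted p of 0.568 for *Cited1* (log2 -2.32) and 0.482 for *Fkbp5* (1.71). That test called 5 genes in all. With PNA+ libraries alone no member passed and 18 genes did, and with Cd49b+ libraries alone no member passed and 5 genes did, with adjusted p from 0.204 to 0.609 for these 2 members. The *Cited1* call was lost without *Cdkn1b*-/- Cd49b+ library 1 (adjusted p = 0.0545) or PNA+ library 2 (adjusted p = 0.0566), and the *Fkbp5* call without *Cdkn1b*+/+ PNA+ library 2 (adjusted p = 0.0509).

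*Esr1* stood at 17.5, 14.3, 21.4 and 20.2 CPM in *Cdkn1b*+/+ LP and at 7.84, 10.95, 6.79 and 11.6 in *Cdkn1b*-/- LP, without overlap. *Pgr* stood at 54.0, 41.7, 66.8 and 57.6 CPM in *Cdkn1b*+/+ LP and at 27.2, 20.9, 31.4 and 28.8 in *Cdkn1b*-/- LP, also without overlap. Both had an adjusted p of 0.124 in edgeR's test and passed in DESeq2's (0.0445 and 0.046) and in the LP libraries fitted alone (0.0428 and 0.0143). *Esr1* passed in 3 of 18 alternatives and *Pgr* in 2. Neither passed in any of the 8 leave-outs or with the progenitor libraries of each rat summed. *Nr3c1* overlapped between genotypes, at 59.1 to 110.4 CPM and 66.9 to 122.5, with a log2 difference of 0.06 (SE 0.25).

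The partners of the receptors moved in both directions. *Prlr* fell by 1.19 on the log2 scale (SE 0.27, adjusted p = 0.0293) and *Foxa1* by 1.34 (SE 0.29, adjusted p = 0.0248), whereas *Tfap2c* rose by 0.87 (adjusted p = 0.026), so of 7 hormone-sensing partners 1 rose and 2 fell, with a list median of -0.64 beside 0.03 over all genes. Of the 17 other receptors 1 fell (*Prlr*), and of 14 tested coregulators and chaperones 1 fell, *Hsp90ab1*, which holds unliganded receptors with Fkbp5 (log2 -0.71, adjusted p = 0.026). Of 11 tested estrogen-responsive genes and of 7 genes of the progesterone axis none passed in edgeR's test. *Areg*, an estrogen-induced growth factor, differed by -0.50 (SE 0.42, adjusted p = 0.57) and *Wnt4* by -0.28 (SE 0.49, adjusted p = 0.813).

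Of the 12 other glucocorticoid-responsive genes 1 rose, the transcription factor *Cebpd* (log2 1.02, SE 0.19, adjusted p = 0.0125), and none fell. *Tsc22d3*, a glucocorticoid target like *Fkbp5*, differed by 0.06 (SE 0.37, adjusted p = 0.959). The list median was 0.26 beside 0.03 over all genes. With the progenitor libraries of each rat summed, none of the *Prlr*, *Foxa1*, *Tfap2c*, *Hsp90ab1* and *Cebpd* calls remained (adjusted p from 0.541 to 0.612).

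Of the 6 milk genes 1 rose in LP, *Wap* (log2 3.97, adjusted p = 0.000216), and all 6 were positive. *Wap* also passed with the libraries of each rat summed (adjusted p = 0.00679). The summed list ranged from 18300 to 62210 CPM in *Cdkn1b*+/+ LP and from 97410 to 212400 in *Cdkn1b*-/- LP. Endothelial sums ranged from 300 to 582 and from 108 to 652 CPM, and none of the 6 endothelial genes passed in edgeR's test. The part of the milk RNA in the member differences was not tested.

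In mature luminal cells *Fkbp5* stood at 7.14 and 7.53 CPM in *Cdkn1b*+/+ and at 24.6 and 57.0 in *Cdkn1b*-/- libraries. The log2 difference of 2.47 (SE 0.47) had an adjusted p of 0.0895 in edgeR's test and passed in DESeq2's (0.000409). *Cited1* stood at 53.1 and 98.2 CPM against 5.26 and 38.5, a difference of -1.79 (SE 0.64, adjusted p = 0.485) that passed without *Cdkn1b*-/- library 2, at -3.83 with an adjusted p of 0.0311. Neither gene overlapped between genotypes, but how many of all genes separate so with 2 libraries against 2 was not counted. *Esr1* at 3.63 and 10.5 CPM and *Pgr* at 6.59 and 31.4 in the *Cdkn1b*-/- libraries spanned the *Cdkn1b*+/+ values, library 1 being low in both.

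None of the 7 tested members passed in mature luminal cells in edgeR's test, where 0.133% of all genes passed, 916 had an unadjusted p under 0.05 and DESeq2 called 158. The same held in basal cells, where 0.0546% passed, 1164 had an unadjusted p under 0.05 and DESeq2 called 170. Basal *Fkbp5* stood at 7.47 and 5.14 CPM in *Cdkn1b*+/+ and at 16.7 and 10.2 in *Cdkn1b*-/- libraries, a difference of 1.09 (SE 0.46, adjusted p = 0.491) without overlap. Basal *Cited1* stood at 10.8 and 22.3 CPM against 9.77 and 10.2, again without overlap. By smaller margins *Pgr* (5.70 and 5.46 CPM against 4.36 and 5.17) and *Nr3c1* (68.1 and 64.9 against 58.2 and 56.4) did not overlap either. Marker sums of the basal libraries also separated the genotypes: milk genes at 4182 to 6238 CPM in *Cdkn1b*+/+ and 26890 to 34170 in *Cdkn1b*-/-, adipocyte markers at 176 to 237 and 437 to 545, and myeloid markers at 7.01 to 15.5 and 25.2 to 28.8, with all 5 tested lymphoid genes positive. Their part in the member differences was not tested.

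Whether the genotype effect differed between populations was tested as an interaction. Neither LP minus mature luminal nor LP minus basal passed for any of the 7 tested members in edgeR's test. Of all genes 0% passed in both, with 224 and 926 at an unadjusted p under 0.05 and 0 and 74 called by DESeq2. The effect on *Pgr* in LP minus that in mature luminal cells was -1.27 (SE 0.59, adjusted p = 1), that on *Cited1* -0.49 (SE 0.76) and that on *Fkbp5* -0.75 (SE 0.55).

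**Figure D2:**
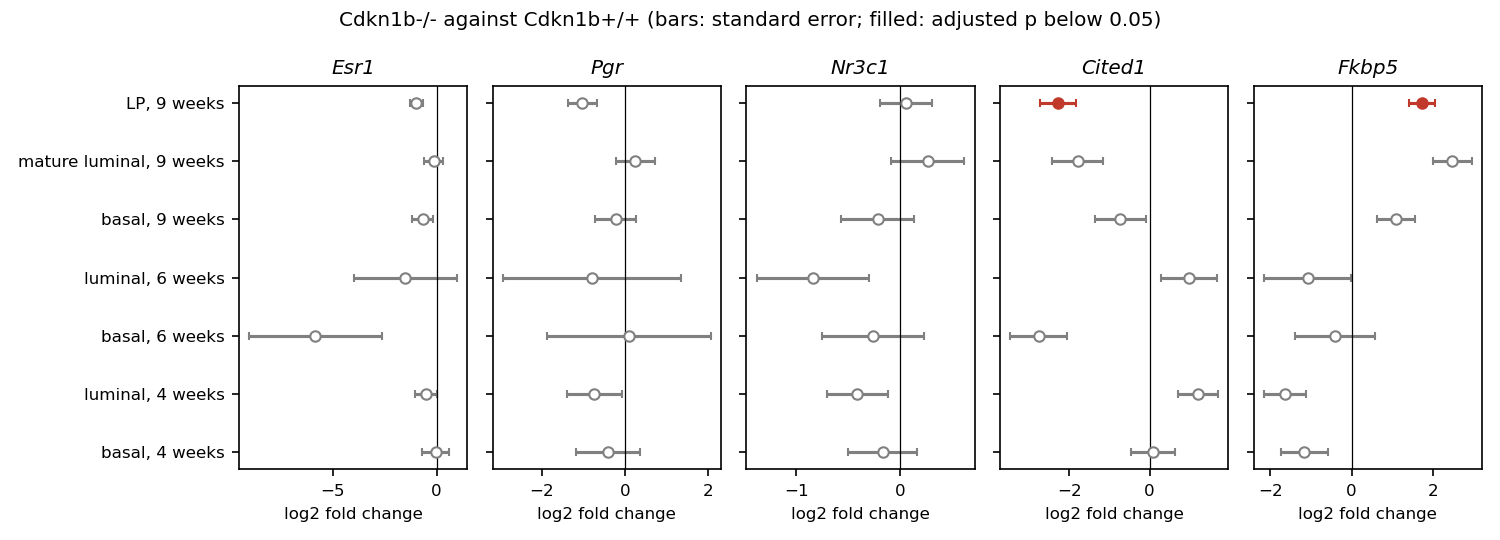
Log2 fold change of *Cdkn1b*-/- against *Cdkn1b*+/+ for 5 members in each population and age (points), with the standard error of edgeR's fit (bars). Filled points have an adjusted p below 0.05, which holds for *Cited1* (-2.27) and *Fkbp5* (1.72) in LP of 9 weeks. With the progenitor libraries of each rat summed, neither gene passed. In luminal cells of 4 and 6 weeks both genes lie on the other side of 0.

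At 4 weeks the luminal members were separated by lineage. Of 6 tested members 3 were higher and 1 lower in *Cdkn1b*+/+ luminal than basal cells, where 23.5% of all 12082 genes passed. *Cited1* stood at 321, 380.5 and 583.5 CPM in luminal and 21.5, 18.3 and 42.2 in basal cells, and was higher by a log2 of 3.88 (SE 0.55, adjusted p = 0.000206). *Esr1* stood at 5.81, 18.5 and 19.8 CPM against 0.916, 1.24 and 1.01, and was higher by 3.72 (SE 0.60, adjusted p = 0.000557). *Pgr* stood at 10.4, 46.3 and 30.7 CPM against 2.38, 3.87 and 5.25, and was higher by 2.85 (SE 0.71, adjusted p = 0.0102).

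Luminal and basal cells did not overlap for these 3 genes, and luminal library 1 was the lowest luminal library in each. In 1 fit of both younger ages *Esr1* (adjusted p = 0.0949) and *Pgr* (adjusted p = 0.244) did not pass. *Tff3*, a secreted trefoil peptide, was lower in luminal cells, at 0 to 0.0553 CPM against 0.758 to 0.942, with at most 1 read in a luminal library (log2 -5.30, adjusted p = 0.00564). That fold change depends on the prior count. *Nr3c1* and *Fkbp5* overlapped between lineages, with log2 differences of -0.13 (SE 0.30) and 0.03 (SE 0.49).

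The related lists held genes of both directions. *Foxa1* was higher in luminal cells by 5.99, *Prlr* by 5.85, *Areg* by 2.85 and *Wnt4* by 2.83 on the log2 scale. Of 17 other hormone receptors 5 were higher and 2 lower, of 11 tested estrogen-responsive genes 4 were higher and 4 lower, and of 12 glucocorticoid-responsive genes 1 was higher and 3 lower. All 7 luminal markers were higher and all 8 basal markers lower in luminal cells.

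At 6 weeks none of the 5 tested members passed between *Cdkn1b*+/+ luminal and basal cells in edgeR's test, where 2.43% of all genes passed, 2064 had an unadjusted p under 0.05 and DESeq2 called 1512. *Cited1* stood at 227 and 193 CPM in luminal and 35.4, 20.8 and 117 in basal cells, without overlap, a difference of 1.93 (SE 0.62, adjusted p = 0.153). It passed with the replicate block (2.95, adjusted p = 0.0405), where all calls fell from 290 to 153, and without basal library 3 (2.87, adjusted p = 0.0265). Basal library 3 has no luminal partner, so the block also takes it out of this difference, and these settings are not separate checks. *Pgr* stood at 171 and 35.0 CPM against 8.15, 1.23 and 0, and *Esr1* at 20.4 and 9.89 against 1.73, 0 and 0, also without overlap.

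Between 4 and 6 weeks none of the 6 tested members passed in *Cdkn1b*+/+ luminal cells in edgeR's test, where 3.1% of all 12572 genes passed, nor in basal cells, where 10.5% passed. At an unadjusted p under 0.05 there were 2597 and 3515 genes, and DESeq2 called 1646 and 2602. Luminal *Nr3c1* stood at 62.6, 77.8 and 74.4 CPM at 4 weeks and at 242.5 and 140.2 at 6 weeks, without overlap, a difference of 1.42 (SE 0.40, adjusted p = 0.0602). It passed with DESeq2 (adjusted p = 0.0107) and without 6-week luminal library 2 (1.75, adjusted p = 0.0499). Among the genes of the progesterone axis *Tnfrsf11a*, the receptor of Rankl, fell by 3.02 in luminal cells (adjusted p = 0.0174) and by 2.11 in basal cells (adjusted p = 0.0163). Age and the collection of the libraries differ together here and cannot be told apart. In these luminal libraries 57.4% to 59.4% of reads were not assigned to a gene at 4 weeks, and 69.4% and 70.6% at 6 weeks.

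In the younger *Cdkn1b*-/- rats no member passed between genotypes in edgeR's test, while DESeq2 called *Cited1* in basal cells of 6 weeks. At 4 weeks luminal *Cited1* stood at 1622, 795 and 653 CPM in *Cdkn1b*-/- against 321, 380.5 and 583.5 in *Cdkn1b*+/+ libraries, a difference of 1.21 (SE 0.49, unadjusted p = 0.0303, adjusted p = 0.854 in edgeR's test). *Fkbp5* stood at 3.80, 8.32 and 14.0 CPM against 32.9, 29.0 and 18.2, a difference of -1.64 (SE 0.51, unadjusted p = 0.0071, adjusted p = 0.854 in edgeR's test). Neither gene overlapped between genotypes. *Esr1* and *Pgr* did, with differences of -0.49 (SE 0.53) and -0.74 (SE 0.66).

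At 4 weeks 0% of all genes passed in luminal cells and 0% in basal cells, with 435 and 310 at an unadjusted p under 0.05 and 0 and 1 called by DESeq2. Basal *Fkbp5* stood at 7.30 and 14.0 CPM in *Cdkn1b*-/- against 14.0, 30.2 and 29.3 in *Cdkn1b*+/+ libraries. That difference of -1.16 (SE 0.58) had an unadjusted p of 0.0653 in edgeR's test.

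At 6 weeks luminal *Cited1* stood at 380 and 437 CPM in *Cdkn1b*-/- against 227 and 193 in *Cdkn1b*+/+ libraries, a difference of 0.98 (SE 0.69, adjusted p = 0.495). *Fkbp5* stood at 12.3 and 1.84 CPM against 16.4 and 13.6, a difference of -1.08 (SE 1.07, adjusted p = 0.629). The library labelled *Cdkn1b*-/- luminal 2 had no *Pgr* read and 1 *Esr1* read, where library 1 had 119 and 10.5 CPM. It had 9241 genes with a read, where library 1 had 12761. Its 437 CPM of *Cited1* lay beside library 1.

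Basal *Cited1* of 6 weeks stood at 9.56 and 6.02 CPM in *Cdkn1b*-/- against 35.4, 20.8 and 117 in *Cdkn1b*+/+ libraries, a difference of -2.75 (SE 0.71, adjusted p = 0.378 in edgeR's test), without overlap. It passed with DESeq2 (adjusted p = 0.0131) and in 1 fit of both younger ages (adjusted p = 0.0455). The 117 CPM is that of *Cdkn1b*+/+ basal library 3, whose *Cdkn1b* stood at 3.48 CPM. Marker sums differed between the same libraries: fibroblast markers stood at 2035 to 3055 CPM in *Cdkn1b*-/- and 72.6 to 558 in *Cdkn1b*+/+, Schwann cell markers at 1310 to 2307 and 340 to 419, and basal markers at 8765 to 10460 and 4124 to 5521. Their part in the *Cited1* difference was not tested. None of the 5 tested members passed in edgeR's test in either cell type. Of all genes 0% passed in both, with 1961 and 1072 at an unadjusted p under 0.05 and 1331 and 321 called by DESeq2.

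**Figure D3:**
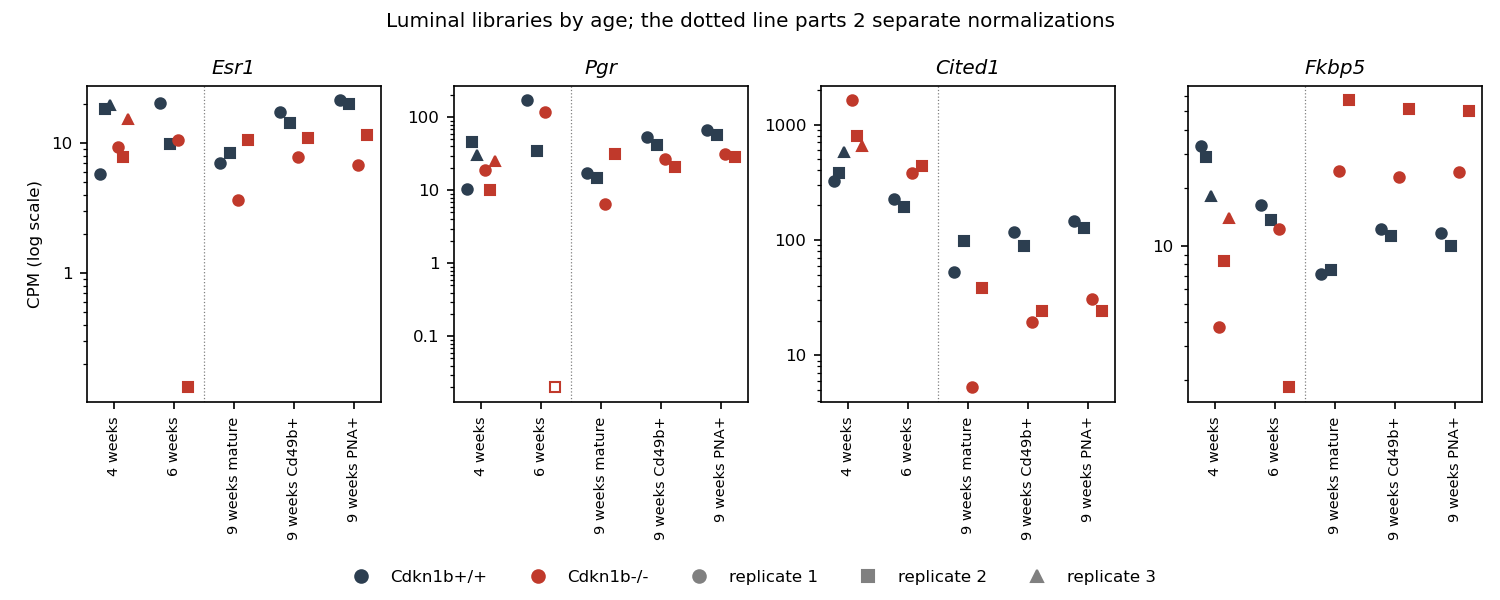
Level in CPM (log scale) of 4 members in each luminal library, by age and sort, with colours for genotype and shapes for the replicate. The dotted line separates libraries that were scaled apart, and the open symbol for *Pgr* is a library with no read, drawn at 0.02. *Cited1* is higher in *Cdkn1b*-/- than in *Cdkn1b*+/+ libraries at 4 and 6 weeks and lower in each sort at 9 weeks, and *Fkbp5* the reverse.

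The change of direction with age was tested in a fit of all genotype libraries that was added after these values had been seen. The genotype effect in LP of 9 weeks minus that in luminal cells of 6 weeks was -3.33 for *Cited1* (SE 0.85, adjusted p = 0.00991) and 2.72 for *Fkbp5* (SE 0.83, adjusted p = 0.0283), 2 of 7 tested members where 14.6% of all genes passed. Without the library labelled *Cdkn1b*-/- luminal 2 of 6 weeks, *Cited1* passed at -3.21 (adjusted p = 0.0402), *Fkbp5* did not at 1.94 (adjusted p = 0.19), and 705 genes passed in place of 1958. With the progenitor libraries of each rat summed neither passed (adjusted p = 0.0608 for *Cited1* and 0.132 for *Fkbp5*, with 565 genes called), nor with PNA+ libraries alone (0.0561 and 0.114) or Cd49b+ libraries alone (0.0721 and 0.142).

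Against luminal cells of 4 weeks the difference was -3.61 for *Cited1* (SE 0.75, unadjusted p = 4.2e-05, adjusted p = 0.278) and 3.28 for *Fkbp5* (SE 0.73, adjusted p = 0.341). None of the members passed in edgeR's test, where 0.00747% of all genes passed and 602 had an unadjusted p under 0.05, and DESeq2 called both among 38 genes. Age, sort (unselected luminal cells against LP) and library set differ together in both comparisons and cannot be told apart.

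In the E2 experiment *Pgr* and *Cited1* were highest in the luminal ACI controls. *Pgr* stood at 143 and 68.1 CPM in luminal cells of ACI controls, at 30.3 and 12.5 in E2-treated ACI, at 0 in the BN control and at 3.66 in the E2-treated BN library. *Cited1* stood at 64.8 and 187 CPM, 13.4 and 0.0374, 0 and 3.31 in the same order. *Esr1* stood at 28.1 and 19.2 CPM, 19.1 and 1.05, 0 and 4.06.

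For all 3 genes both ACI controls exceeded both E2-treated ACI libraries, by little for *Esr1* (19.2 against 19.1), and the lower E2-treated value was that of library 2. The same held for *Nr3c1*, at 187.4 and 119.9 CPM in the controls against 119.4 and 72.8. None of the 7 tested members passed in edgeR's test between E2 and control luminal cells with strain as a term: *Cited1* differed by -2.72 (SE 3.49), *Pgr* by -0.85 (SE 2.23) and *Esr1* by 0.23 (SE 2.62), each with an adjusted p of 0.999. Of all 12670 genes 0% passed, 437 had an unadjusted p under 0.05 and DESeq2 called 131. The single BN pair went the other way for *Pgr*, *Cited1* and *Esr1*, from no read in the control, and the fit joins it with ACI in one estimate. With errors of this size an E2 effect was not detectable, and its absence is not shown.

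The luminal libraries differed in composition. Summed luminal markers ranged from 7714 to 21530 CPM, milk genes from 2918 to 80590 and fibroblast markers from 54.8 to 5129, the last highest in E2-treated ACI library 1. The BN control library held 17450 CPM of luminal markers with 0 reads of *Esr1*, *Pgr* and *Cited1* among 24974043 assigned reads, and *Nr3c1* at 125 CPM in the range of the other luminal libraries. *Prlr* was also at 0 there, with *Foxa1* at 5.896 CPM against 279.9 and 200.2 in the ACI controls. That library had 10011 genes with a read, against 11912 and 12836 in the ACI controls and 9184 to 11369 in the E2-treated luminal libraries. By the methods the libraries were made with a low-input kit. Read depth therefore does not count the molecules sampled, and 0 reads do not show absence. The part of sample composition in these values was not tested.

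Between strains none of the 7 tested members passed in edgeR's test in luminal cells, with *Pgr* 4.41 higher in ACI on the log2 scale (SE 2.29, unadjusted p = 0.0975) as the smallest p. Of all genes 0% passed, 511 had an unadjusted p under 0.05 and DESeq2 called 403. In basal cells none passed between strains or between treatments, where 0% of the 12265 genes passed in both, 91 and 178 had an unadjusted p under 0.05 and DESeq2 called 20 and 101. Basal *Pgr* stood at 0 and 0.0872 CPM in ACI controls, 0 and 4.48 in E2-treated ACI, 0.521 in the BN control and 21.4 in the E2-treated BN library.

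*Nr3c1* and *Fkbp5* were present in every library. *Nr3c1* ranged from 72.8 to 188 CPM over the 12 libraries, and *Fkbp5* from 0.350 in the luminal BN control, with 7 reads, to 27.5 in a luminal ACI control. Reads of *Esr2* were seen in 2 libraries, 52 reads in E2-treated ACI luminal library 1 and 59 reads in the basal BN control, against 0 in the other 10. None of the 7 tested members passed between luminal and basal cells in edgeR's test, where 1.96% of all genes passed, 2045 had an unadjusted p under 0.05 and DESeq2 called 2104.

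**Figure D4:**
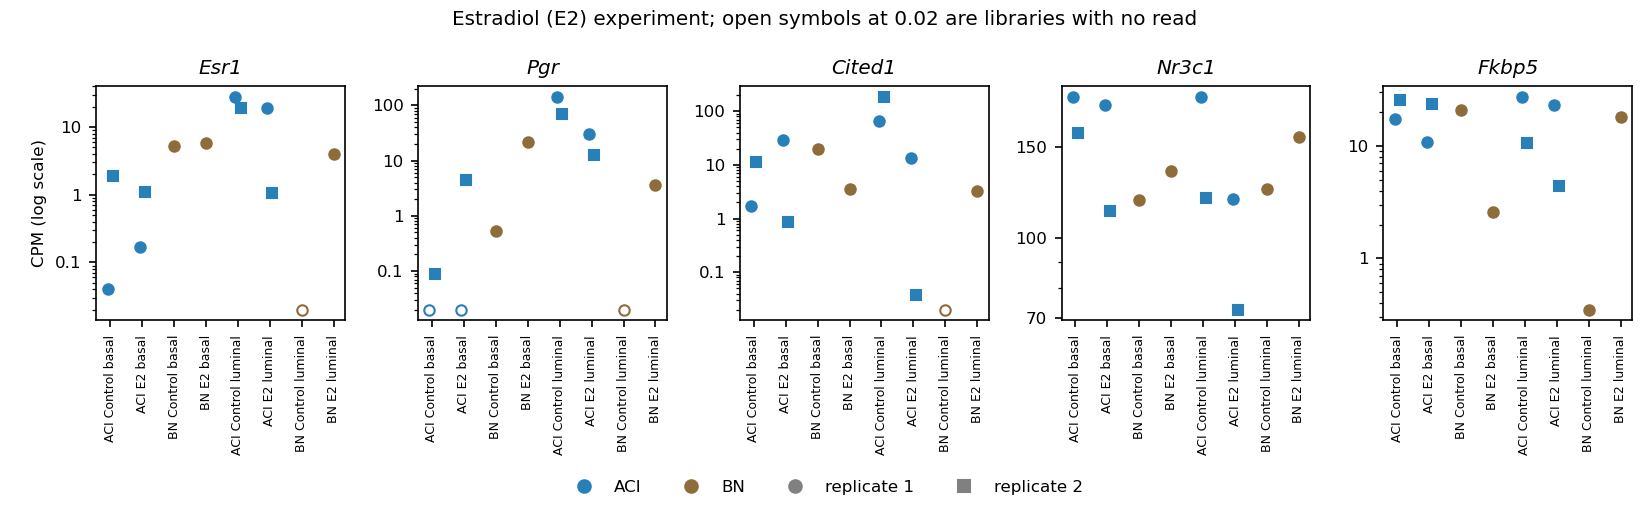
Level in CPM (log scale) of 5 members in each of the 12 libraries of the E2 experiment, by strain, treatment and cell type, circles for replicate 1 and squares for replicate 2. Open symbols are libraries with no read, drawn at 0.02. *Pgr* is highest in the luminal ACI controls (143 and 68.1) and has no read in the luminal BN control, while *Nr3c1* stays between 72.8 and 188.

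Over the 16 libraries of 9 weeks, the genes most like a member were found by Pearson's r of log2 CPM among 8793 genes, as a description with no p since the libraries share rats, sorts and sequencing depth. *Esr1* was most like *Prlr* (0.99), *Foxa1* (0.98) and *Lnx1* (0.98), and *Pgr* like *Fzd3* (0.97), *Foxa1* (0.95) and *Prlr* (0.95). Both receptors therefore had *Foxa1* and *Prlr* among their nearest genes. *Cited1* was most like *Vill* (0.95), *Msx2* (0.94) and *Tmem150c* (0.94).

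*Nr3c1* was most like *Nab1*, *Acap2* and *Csnk1g3* (0.95 each), and *Fkbp5* like *Hephl1* (0.92), *Hpgd* (0.89) and *Thada* (0.89). The nearest genes of *Tff3* (*Stmn1*, *Ydjc*, *Arg2*) rest on few reads of the member. Of the genes named here, *Foxa1* and *Prlr* were the ones shared between members.

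**Figure D5:**
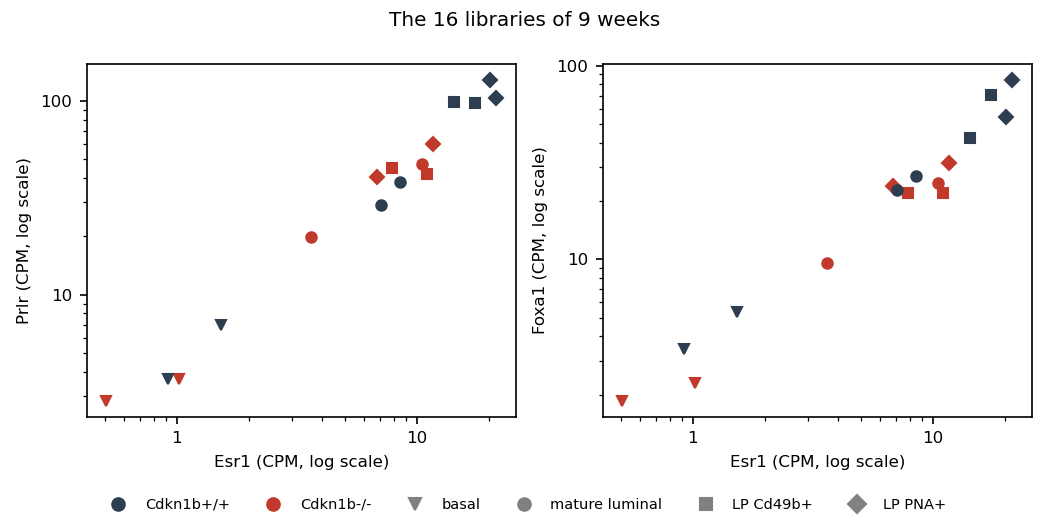
Levels of *Prlr* and *Foxa1* against *Esr1* in the 16 libraries of 9 weeks (CPM, log scales), with shapes for the population and colours for the genotype. Basal libraries lie at the lower left, from 0.508 CPM of *Esr1*, and *Cdkn1b*+/+ LP libraries at the upper right, up to 21.4. The *Cdkn1b*-/- LP libraries lie between the basal and the *Cdkn1b*+/+ LP libraries, near the mature luminal ones.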

How the data were processed

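RNA of sorted mammary cells was sequenced in 48 libraries. The deposited files hold raw read counts per gene. The authors aligned reads with STAR (2.5.1b) to rn6 and counted them with HTSeq on RefSeq genes, and rows that name no gene (47.1% to 77.0% of reads) were left out here. Counts were fitted with edgeR (4.0.16, R 4.3.3; TMM, filterByExpr, quasi-likelihood test) over all genes. Adjusted p-values follow Benjamini-Hochberg, and a gene passed below 0.05. The PNA+ and Cd49b+ libraries were joined as LP. Fits used 9 weeks, 4 weeks, 6 weeks or the E2 libraries. The fits were tested on simulated data. Alternatives were DESeq2 (1.42.0), RLE scaling, other filters, compared libraries alone, a replicate block and leaving out each library. Standard errors are the log2 fold change over the root of F. Levels and floors cover counting error only, and reads carry no molecular identifiers.

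The members, gene lists and tests were chosen with earlier results of these data known. Named genes are the members, the 3 genes most alike each, a few preset partners, and up to 3 called genes per list and comparison. The numbers of the 9-week libraries pair those of one genotype (r of deviations 0.26 to 0.80) and not those of different genotypes (-0.30 to 0.0014). No 2 replicates of a group agreed within sampling noise. The 2 peak files of progesterone receptor binding were not used here. A few results on other genes are not reported here.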

Additional observations from a re-analysis of the deposited data

Results flagged for a closer look

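The effect of *Cdkn1b* loss on *Cited1* and *Fkbp5* differed between LP of 9 weeks and luminal cells of 6 weeks, by -3.33 and 2.72 on the log2 scale in the interaction term of edgeR's fit, added after seeing the data. With the progenitor libraries of each rat summed, neither passed (adjusted p = 0.0608 and 0.132). *Cited1* was lower in every *Cdkn1b*-/- LP library of 9 weeks (ratio of means 0.207) and higher in every *Cdkn1b*-/- luminal library of 4 and 6 weeks, and *Fkbp5* was higher in LP (3.3) and lower in those luminal libraries. The same opposite pattern was seen from mature luminal cells of 9 weeks (0.289 for *Cited1* and 5.56 for *Fkbp5*) to luminal cells of 4 and 6 weeks, and for *Cited1* from basal (0.135) to luminal cells of 6 weeks. The differences from mature luminal and from basal cells were not tested. Over the members, 98 pairs of groups were looked at for opposite differences without overlap, and 9 were found. These pairs share libraries and are not separate results, and the share over all genes was not counted.

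*Esr2* in *Cdkn1b*-/- LP had 1 library with 1 read and 3 with 0, so the gap to the nearest library was the whole range (1.0). That value follows whenever 3 of 4 libraries are at 0, and a single read is under the floor of 3 counts.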

How the results depend on the processing

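Over 23 comparisons, 269 of 307 alternatives left the count of members called within 1.5 times. Most of these comparisons called no member in the main fit, where an unchanged count is 0 against 0. The total therefore does not measure how firm the calls are. None of 1776 alternatives for single members reversed the direction of a member that passed in the main fit or in that alternative. For members that passed in neither, a change of direction was not counted. For LP against mature luminal cells (1 member called) DESeq2 gave 2, the compared libraries alone 2, the progenitor libraries summed per rat 0, PNA+ or Cd49b+ alone 0 (both added after seeing the data), the replicate block 4, and leaving out a library 0 to 1. Basal against mature luminal cells (3) gave 1 to 2 without 1 library. At 4 weeks, luminal against basal (4) gave 2 with at least 10 counts in every library, which tests fewer genes, and 2 in 1 fit of both ages. At 6 weeks (0) the replicate block gave 1 and leaving out a library 0 to 1. For genotype in LP (2) DESeq2 gave 4, the compared libraries alone 4, summed libraries 0, either sort alone 0, and leaving out a library 1 to 2. In mature luminal cells (0) DESeq2 gave 1 and leaving out a library 0 to 1. In basal cells of 6 weeks (0) DESeq2 gave 1 and 1 fit of both ages 1. For 6 against 4 weeks in luminal cells (0) the count filter, DESeq2 and the compared libraries alone gave 1 each, and leaving out a library 0 to 1. For genotype in LP minus luminal cells of 4 weeks (0) DESeq2 gave 2, and for that minus 6 weeks (2) leaving out the library labelled *Cdkn1b*-/- luminal 2 gave 1, and libraries summed per rat, PNA+ alone and Cd49b+ alone gave 0 each (added after seeing the data). The cause was not tested except where stated. Genotypes share only replicate numbers: with the replicate block, genotype in LP called 3 members (*Esr1* at -1.05 added, adjusted p = 0.0422) and 671 genes in place of 436, mature luminal 42 in place of 17 and basal 14 in place of 7. Peaks near the members were not run, since no annotation of the files' build was used here. With 2 rats per genotype and errors above 2 on the log2 scale for several members in the E2 experiment, only large differences were detectable.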
